A study of Homo sapiens with 12 samples.

Results

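In this study of OSCC (oral squamous cell carcinoma) cells, the genes described here are 39 genes of glucose breakdown and of the response to low oxygen. They were taken by their symbols from the 58302 genes of the RNA-seq count table and from the m6A peak lists. They comprised 3 subunits of the hypoxia-inducible factors (HIFs), 2 prolyl hydroxylases that act on them, 10 HIF targets outside glycolysis, 2 glucose transporters, 9 genes of upper glycolysis, 2 regulators of phosphofructokinase, 6 genes of lower glycolysis and 5 genes of pyruvate use and lactate export. All 39 symbols were found in the count table, and 38 had enough counts to be tested. The exception was SLC2A3, a glucose transporter, with 0 to 2 counts in a library. RNA-seq comprised 2 libraries of cells treated with 100 nM rapamycin and 2 libraries of untreated control cells, and the sources used here give no duration for them. The m6A peaks came from HSC3 and CAL33 cells, each with 100 nM rapamycin for 3 days and without it, with 1 immunoprecipitated library and 1 input per cell line and treatment. HSC3 and CAL33 are established human OSCC lines, and rapamycin is an inhibitor of the kinase complex mTORC1 that the study used to induce autophagy.

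Glycolysis splits glucose into pyruvate and yields ATP without oxygen, and tumour cells often run it at a high rate and export the lactate made from pyruvate. In low oxygen the HIF alpha subunits escape the prolyl hydroxylases that mark them for degradation, pair with ARNT and bind short hypoxia response elements near their target genes. Many glycolytic enzymes, the glucose transporters and the prolyl hydroxylases themselves are known HIF targets.

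The RNA-seq labels named HSC3 for each rapamycin library and CAL33 for each control library. The m6A libraries, by contrast, were numbered 1 for HSC3 and 2 for CAL33 under both treatments. In the RNA-seq data, libraries with the same number were the most alike. The correlation of log2 CPM (read counts normalised for library size) across the tested genes was 0.97 between the libraries numbered 1 and 0.96 between those numbered 2, against 0.76 to 0.81 for the other pairs. The 357 tested genes with a peak in both HSC3 lists and in neither CAL33 list had a median log2 difference of -0.46 between numbers 2 and 1, and the 189 genes with the reverse pattern had a median of 0.46. The medians of the same gene sets between rapamycin and control were -0.04 and 0.02. The number was therefore used as a block, which compares rapamycin with control within each number. If the RNA-seq labels hold instead, cell line and treatment cannot be told apart. Libraries held 18492273 to 23763098 counts, of which 5.71% to 7.94% came from mitochondrial genes. Summed markers of squamous epithelium reached 1307 to 5493 CPM, those of fibroblasts 8.91 to 46.8 CPM and those of blood and endothelium 1.58 to 45.6 CPM, with 3 of 8 markers at 0 in every library in each of the latter lists. KRT5, KRT14, KRT6A, KRT17, TP63, DSG3 and ITGB4 were higher in number 2, CDH1 was lower, and EPCAM and SFN did not pass. With rapamycin and without, KRT17 stood at 5.0 and 4.9 CPM in number 1 and at 2119 and 1346 CPM in number 2. The endothelial marker CDH5 had 41.6 and 25.6 CPM in number 2. Of the 10 squamous markers KRT5, KRT14 and KRT6A were lower with rapamycin (log2 fold changes -2.43, -2.85 and -5.46, KRT14 with no count in the libraries numbered 1). The other 7 did not pass, with estimates from -0.91 for SFN to 0.38 for KRT17, and the part of these keratins in the results below was not tested.

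The question put to the RNA-seq data was whether rapamycin-treated cells differed from control cells in the expression of these genes. With rapamycin, 9 members fell and 2 rose at an adjusted p below 0.05 in edgeR's quasi-likelihood test, in which p-values are adjusted over all 15826 tested genes. The genes that fell were the enzymes LDHA, PGAM1, PKM, GPI, PGK1 and TPI1, the prolyl hydroxylases EGLN1 and EGLN3, and BNIP3. The genes that rose were VEGFA and BNIP3L. Of all tested genes, 8.15% passed, with 4.65% higher and 3.50% lower in rapamycin-treated cells. The median log2 fold change was -0.37 over the 38 members and 0.05 over all tested genes. In 20 members (52.6%) the difference was negative in both numbered pairs, and in 8 (21.1%) it was positive in both. In 10 (26.3%) the pairs went in opposite directions. The shares of all tested genes were 31.8%, 34.6% and 33.6%, where the last also counts genes with no difference within a number. Without the replicate block no member and no other gene passed (7 members and 446 genes had an unadjusted p below 0.05), so every call below rests on the pairing by number. The calls of GPI, TPI1 and PGK1 were also lost under upper-quartile normalisation (edgeR adjusted p = 0.056, 0.064 and 0.059), that of TPI1 under non-robust dispersion (edgeR adjusted p = 0.051), and that of BNIP3L with DESeq2 (adjusted p = 0.056). With 2 libraries a group, and nothing in the labels to say that they were separate cultures, the p-values speak only for these libraries. So few libraries hardly show the spread of a single gene, and the blocked fit takes most of it from all genes together. VEGFA, with pair differences of 1.43 and 0.65, and LDHA, with -1.77 and -1.65, thus had the same standard error (SE) of 0.27. Counts of bulk RNA are relative, so fewer cells that express a gene and less of its RNA per cell cannot be told apart.

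**Figure D1:**
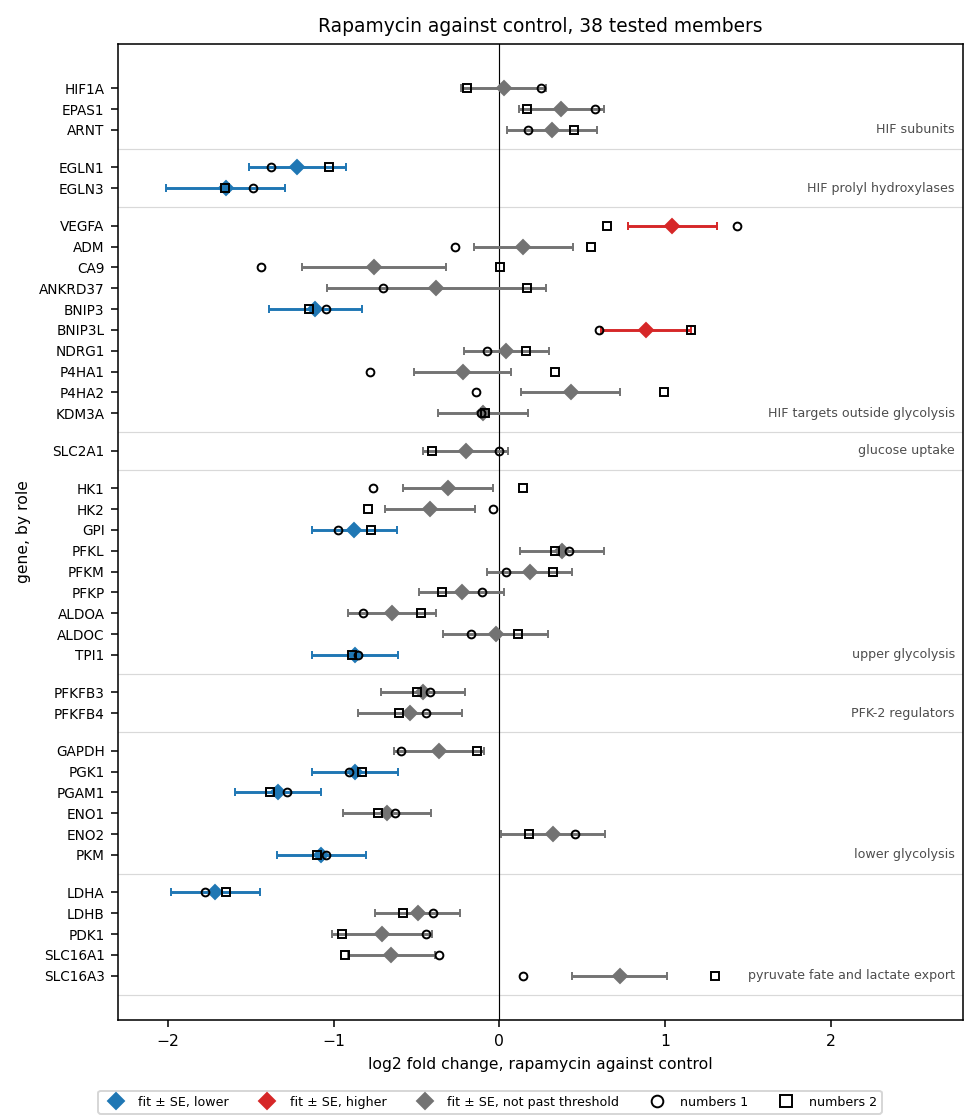
Log2 fold change of rapamycin against control on the horizontal axis for the 38 tested members, with a line for each gene and ordered by role. Diamonds with bars are the blocked edgeR estimate ± SE, coloured where past the threshold, and open symbols are the difference within the libraries numbered 1 (circle) and 2 (square). The 9 blue genes sit between -1.71 and -0.87, and the 2 red genes at 0.88 and 1.05.

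Lower glycolysis, the steps from glyceraldehyde 3-phosphate to pyruvate that give back ATP, held 3 of the genes that fell among 6 tested, with a median log2 fold change of -0.77. PGAM1, the phosphoglycerate mutase, had normalised counts of 98.8 and 143 CPM in rapamycin libraries 1 and 2 and of 240 and 374 CPM in control libraries 1 and 2. Both treated libraries lay below both controls (31.5% of all tested genes, and 73.7% of those past the threshold, did not overlap between the groups), and the log2 fold change was -1.34 ± 0.26 (SE, edgeR adjusted p = 0.0026), or 2.52-fold lower. PKM, which makes pyruvate and ATP in the last step, stood at 1266 and 1513 CPM with rapamycin and at 2615 and 3243 CPM in the controls. The groups did not overlap, and its log2 fold change was -1.07 ± 0.27 (edgeR adjusted p = 0.013). PGK1, the kinase that makes ATP one step after GAPDH, stood at 413 and 356 CPM with rapamycin and at 776 and 633 CPM in the controls. It fell by 0.87 ± 0.26 on the log2 scale (edgeR adjusted p = 0.035), again with no overlap.

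The other members of lower glycolysis did not pass. ENO1, the main enolase, had 2600 and 2028 CPM with rapamycin and 4015 and 3365 CPM without. Its treated libraries also lay below both controls, but its log2 fold change of -0.68 ± 0.27 had an adjusted p of 0.11 in edgeR. GAPDH, often used as a reference gene, had 3505 and 7607 CPM with rapamycin and 5282 and 8333 CPM in the controls. Its groups overlapped, with a log2 fold change of -0.36 and an edgeR adjusted p of 0.44. ENO2, the enolase best known from neurons, had a log2 fold change of 0.32 (edgeR adjusted p = 0.57).

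Of the 9 genes of upper glycolysis, in which glucose is phosphorylated and split at the cost of ATP, 2 fell and none rose. GPI, the isomerase that turns glucose 6-phosphate into fructose 6-phosphate, had 157 and 319 CPM with rapamycin and 309 and 546 CPM in the controls. Each treated library lay below the control of its own number, while rapamycin library 2 lay above control library 1. The log2 fold change of GPI was -0.88 ± 0.26 (edgeR adjusted p = 0.034). TPI1, which interconverts the triose phosphates, stood at 640 and 692 CPM with rapamycin and at 1157 and 1279 CPM without, a difference of -0.87 ± 0.26 (edgeR adjusted p = 0.038). The groups of TPI1 did not overlap, and annotated TPI1 pseudogenes held at most 2.05% of its count in a library, which is also the highest such share among the members that fell. The log2 fold changes of the other 7 genes ranged from -0.65 for ALDOA, an aldolase, to 0.38 for PFKL, a phosphofructokinase subunit, and their edgeR adjusted p-values from 0.13 to 0.97. The hexokinases HK1 and HK2, which trap glucose in the cell, had log2 fold changes of -0.31 and -0.42. PFKFB3 and PFKFB4, which make and remove the phosphofructokinase activator fructose 2,6-bisphosphate, had values of -0.46 and -0.54, negative in both pairs and not past the threshold (edgeR adjusted p = 0.27 and 0.30). PFKFB4, the larger of these, stood at 35.2 and 7.95 CPM with rapamycin and at 48.0 and 12.3 CPM in the controls.

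At the end of the pathway LDHA, the lactate dehydrogenase subunit that favours the formation of lactate, fell further than any other member. It stood at 484 and 604 CPM in the rapamycin libraries and at 1656 and 1899 CPM in the controls. Both control libraries were well above both treated libraries, and the log2 fold change was -1.71 ± 0.27 (edgeR adjusted p = 0.00048), or 3.28-fold lower. LDHB, the subunit that favours the reverse reaction, had 284 and 474 CPM with rapamycin and 376 and 709 CPM without, with overlapping groups and an edgeR adjusted p of 0.25. PDK1, which holds pyruvate back from the mitochondria, had a log2 fold change of -0.71 (edgeR adjusted p = 0.15). The lactate transporters had estimates of opposite sign, neither past the threshold. SLC16A1 (MCT1) stood at 173 and 126 CPM with rapamycin and at 223 and 240 CPM without, and SLC16A3 (MCT4), which is induced by HIF1A, at 120 and 133 CPM with rapamycin and at 109 and 53.4 CPM without. Their log2 fold changes were -0.65 and 0.73, each with an edgeR adjusted p of 0.12. SLC2A1 (GLUT1), the main glucose importer of many tumours, had 179 and 425 CPM with rapamycin and 179 and 564 CPM without. The libraries numbered 1 were level and those numbered 2 differed by -0.41 on the log2 scale, with an edgeR adjusted p of 0.68.

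**Figure D2:**
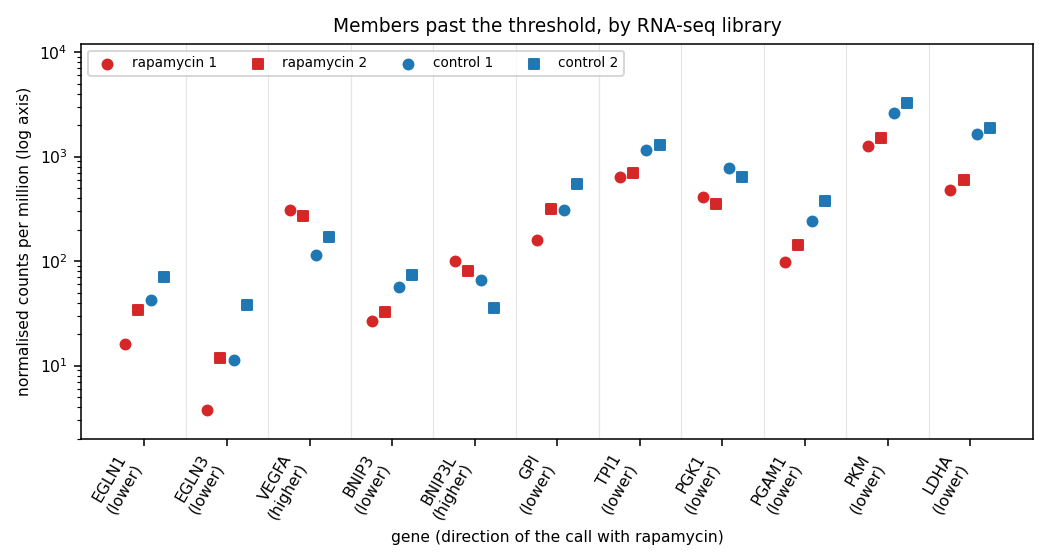
Normalised counts (CPM) on a log axis for the 11 members past the threshold, with 1 point per RNA-seq library (red, rapamycin; blue, control; circle, number 1; square, number 2). Treated and control libraries do not overlap in 9 of the 11 genes (31.5% of all tested genes and 73.7% of all genes past the threshold do not overlap), and in EGLN3 and GPI rapamycin library 2 lies just above control library 1.

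The genes of the HIF subunits did not pass the threshold. HIF1A had 274 and 248 CPM with rapamycin and 230 and 284 CPM in the controls, a log2 fold change of 0.03 ± 0.26 (edgeR adjusted p = 0.96). EPAS1, which encodes HIF-2 alpha, had 385 and 231 CPM with rapamycin and 258 and 206 CPM without (0.37 ± 0.26, edgeR adjusted p = 0.40). ARNT, the common partner, had 60.7 and 65.7 CPM with rapamycin and 53.7 and 47.9 CPM without (0.32 ± 0.27, edgeR adjusted p = 0.51). HIF activity is set largely by protein stability, which these data do not measure.

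Both prolyl hydroxylase genes among the members fell, while EGLN2, the third of the family and not a member, did not pass (log2 fold change -0.84, edgeR adjusted p = 0.31). EGLN1, the main oxygen sensor of the family, had 16.2 and 34.1 CPM with rapamycin against 42.9 and 70.0 CPM, with no overlap, and its log2 fold change was -1.22 ± 0.29 (edgeR adjusted p = 0.010). EGLN3 had 3.73 and 11.7 CPM against 11.4 and 38.1 CPM. Rapamycin library 2 of EGLN3 lay just above control library 1, but within each number the treated library was lower, and the log2 fold change was -1.65 ± 0.36 (edgeR adjusted p = 0.0062), or 3.14-fold lower.

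The 10 HIF targets outside glycolysis did not move in one direction, with 1 lower, 2 higher and a median log2 fold change of -0.03. BNIP3, a mitochondrial protein that takes part in mitophagy and cell death, had 27.0 and 32.6 CPM with rapamycin and 56.2 and 72.9 CPM in the controls. It was 2.16-fold lower (log2 fold change -1.11 ± 0.28, edgeR adjusted p = 0.015). BNIP3L (NIX), its relative and a mitophagy receptor, had 101 and 80.0 CPM with rapamycin and 66.6 and 35.6 CPM without, and rose by 0.88 ± 0.27 on the log2 scale (edgeR adjusted p = 0.042). VEGFA, the angiogenic growth factor, had 310 and 267 CPM with rapamycin and 114 and 170 CPM without. It was 2.06-fold higher (log2 fold change 1.05 ± 0.27, edgeR adjusted p = 0.017), and neither it nor BNIP3 or BNIP3L overlapped between groups. The other 7 (ADM, CA9, ANKRD37, NDRG1, P4HA1, P4HA2 and KDM3A) had log2 fold changes from -0.76 to 0.43 and edgeR adjusted p-values from 0.30 to 0.94. In 6 of these 7 the pairs went in opposite directions.

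The balance between related genes was read as the log2 ratio of their normalised counts within a library, compared between libraries only, since gene lengths were not used. These ratios are given as a description and were not tested. The BNIP3L/BNIP3 ratio was 1.89 and 1.28 with rapamycin and 0.24 and -1.02 in the controls, so that it was higher in both treated libraries, by 1.64 and 2.31 in the pairs numbered 1 and 2. The LDHB/LDHA ratio was -0.77 and -0.35 with rapamycin and -2.14 and -1.42 without, higher by 1.37 and 1.07. The SLC16A3/SLC16A1 ratio was -0.52 and 0.08 with rapamycin and -1.03 and -2.16 without, higher by 0.51 and 2.24. The ENO2/ENO1 ratio was -6.05 and -6.75 with rapamycin and -7.13 and -7.66 without. These 4 ratios were higher in every treated library than in either control. The PFKP/PFKL ratio (0.28 and -0.34 with rapamycin, 0.81 and 0.34 without) and the PFKP/PFKM ratio (1.26 and 0.86 with rapamycin, 1.41 and 1.53 without) were lower in every treated library than in either control. In all, 6 of the 13 ratios, some of which share a gene, did not overlap between the groups. The 31.5% given above is a share of single genes and is no background for ratios, for which no such share was taken. In BNIP3L/BNIP3 and SLC16A3/SLC16A1 each gene alone did not overlap between the groups, in opposite directions, so that the ratio could not overlap. The EPAS1/HIF1A, P4HA2/P4HA1 and ALDOC/ALDOA ratios were higher with rapamycin within each number, by means of 0.35, 0.65 and 0.62. The PFKM/PFKL, EGLN3/EGLN1 and PFKFB4/PFKFB3 ratios were lower with rapamycin within each number, by means of -0.20, -0.37 and -0.07. The HK2/HK1 ratio moved by 0.72 in the pair numbered 1 and by -0.94 in that numbered 2.

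**Figure D3:**
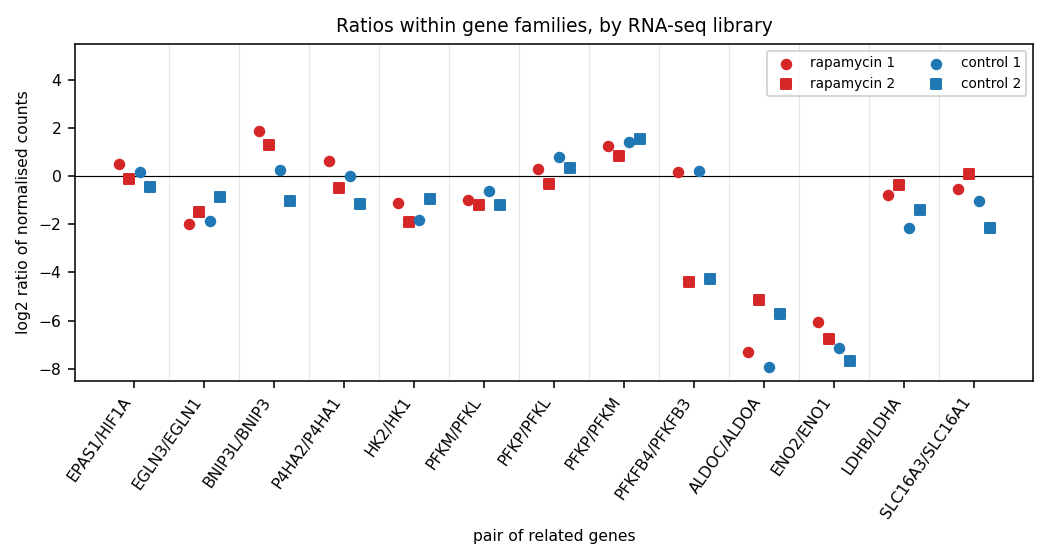
Log2 ratio of normalised counts within each RNA-seq library for 13 ratios of related genes (red, rapamycin; blue, control; circle, number 1; square, number 2). For BNIP3L/BNIP3, ENO2/ENO1, LDHB/LDHA and SLC16A3/SLC16A1 both red points lie above both blue points, for PFKP/PFKL and PFKP/PFKM both lie below, and ALDOC/ALDOA and PFKFB4/PFKFB3 separate by number.

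Several members differed more between the numbers than between the treatments. In the same fit 14 members were higher and 2 lower in the libraries numbered 2, where 37.3% of all tested genes passed, 17.0% higher and 20.2% lower. ALDOC, an aldolase, had 3.10 and 3.56 CPM in the libraries numbered 1 and 54.9 and 50.7 CPM in those numbered 2, a log2 difference of 3.98 ± 0.35 (edgeR adjusted p = 5.4e-10). CA9, the membrane carbonic anhydrase widely used as a hypoxia marker, had 1.52 and 4.99 CPM in the libraries numbered 1 and 22.4 CPM in both numbered 2 (2.96 ± 0.45, edgeR adjusted p = 1.4e-05). PFKFB3 had 31.1 and 41.7 CPM against 177 and 250 CPM (2.54 ± 0.27, edgeR adjusted p = 1.4e-08), whereas PFKFB4 had 35.2 and 48.0 CPM against 7.95 and 12.3 CPM (-2.05 ± 0.32, edgeR adjusted p = 9.7e-06). These paralogues thus differed between the numbers in opposite directions. NDRG1, ALDOA, SLC2A1 and PFKL were also higher in number 2, by 2.15, 1.64, 1.45 and 1.34 on the log2 scale. Of the 11 members past the threshold with rapamycin, EGLN1, EGLN3 and GPI also differed between the numbers, all higher in number 2.

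**Figure D4:**
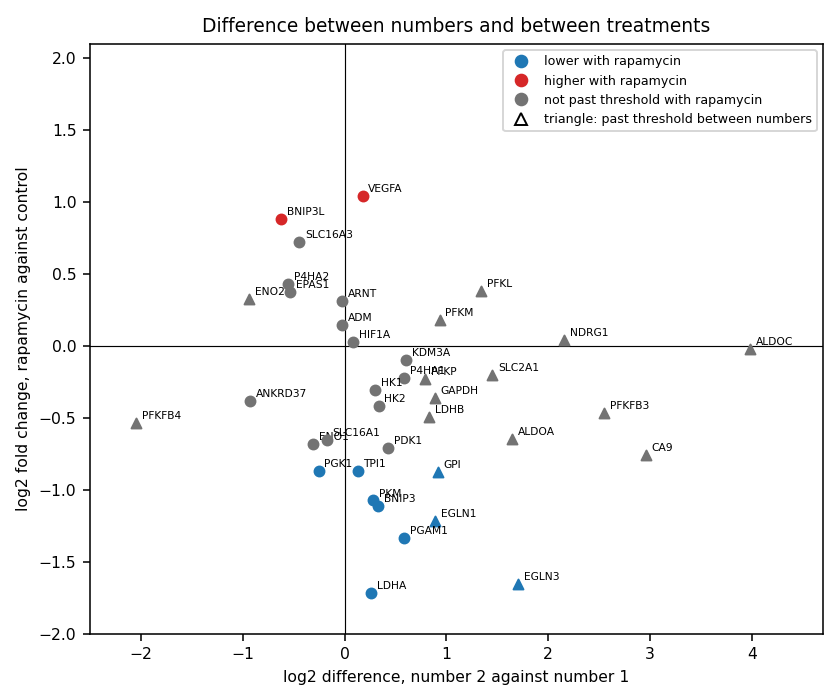
Log2 difference between the libraries numbered 2 and 1 (horizontal) and between rapamycin and control (vertical) for the 38 tested members, coloured by the result with rapamycin and drawn as triangles where the numbers differed past the threshold. ALDOC, CA9, PFKFB3 and NDRG1, farthest to the right at 3.98 to 2.15, did not pass with rapamycin, and LDHA, at -1.71 on the vertical axis, lies near 0 on the horizontal one.

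The start regions of the members were searched for the core letters of the hypoxia response element, ACGTG and GCGTG, on both strands. The regions are those of RefSeq (GRCh38.p14), 250 bases before and 50 after each transcript start, and 34 of the 39 members were matched, with 62 regions. ACGTG was found in 37.1% of the members' regions and in 25.2% of those of all tested genes, while GCGTG was found in 40.3% and 47.7%. Counted by gene, in which a gene with more starts has more chances, 19 of the 34 members (55.9%) held ACGTG, against 32.0% of tested genes. GCGTG was held by 58.8% of the members and 57.5% of tested genes. Of the 9 members that fell, 6 held ACGTG (LDHA, PGK1, GPI, TPI1, BNIP3 and EGLN1), as did 13 of the 25 matched members that did not pass (52.0%). Either core was held by 77.8% of the members that fell and by 92.0% of those that did not pass, and neither core was found in the regions of PGAM1 and EGLN3. VEGFA and BNIP3L had no entry. A match is a description of letters and not evidence of binding.

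The stretches around the cores are shown for LDHA, PGK1, GPI and BNIP3, which fell and have a core before their first annotated start (those of TPI1 lie before a later start and are not shown), 5′ to 3′ on the gene's strand with every core that lies whole in the stretch in capitals. CACGTG holds ACGTG on both strands and is also the E-box letter sequence, and CACGT and CACGC are ACGTG and GCGTG read on the opposite strand. The LDHA stretches lie on the plus strand at chr11:18394366-18394394, chr11:18394464-18394492 and chr11:18394478-18394506, and begin their cores 185, 87 and 73 bases before the start.
LDHA upstream: agactcccagcgCACGTGgagcagtctgc
LDHA middle: cagcccgactcaCACGTGggttcccgcac
LDHA near: cgtgggttcccgCACGTccgccggccccc
The PGK1 stretches lie on the plus strand at chrX:78104034-78104062 and chrX:78104053-78104081, with ACGTG beginning 202 bases and CACGT 183 bases before the start.
PGK1 upstream: gcgGCGTGccggACGTGacaaacggaagc
PGK1 near: aaacggaagccgCACGTctcactagtacc
The GPI stretch lies on the plus strand at chr19:34364818-34364846, with its core 162 bases before the start, and that of BNIP3 on the minus strand at chr10:131982040-131982068, with its ACGTG 133 bases before the start.
GPI: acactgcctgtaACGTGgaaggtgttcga
BNIP3: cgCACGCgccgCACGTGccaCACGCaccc
The LDHA region thus held ACGTG at 3 separate places, and the BNIP3 stretch held ACGTG with GCGTG cores on either side.

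The m6A peak lists answered which of these transcripts carried an m6A peak with and without rapamycin. Each list rests on 1 immunoprecipitated library and its input, so that fold enrichments (immunoprecipitated RNA over input, as deposited) have no error and no test, and the depth behind them is unknown. In all, 16 of the 39 members had a peak in at least 1 list and 23 had none, with 39 of the 14586 peaks. The members with a peak were 10 in HSC3 control, 8 in HSC3 with rapamycin, 6 in CAL33 control and 6 in CAL33 with rapamycin. Among the 38 tested members these made 26.3%, 21.1%, 13.2% and 15.8%, where 17.6%, 17.5%, 16.1% and 14.2% of all tested genes had a peak in the same lists. LDHA, PKM, PGAM1, PGK1 and TPI1 had no peak in any list. Among the other members that fell, EGLN1 and BNIP3 had a peak in HSC3 control only, and EGLN3 and GPI in HSC3 with rapamycin only. The BNIP3 peak, in the 3′ untranslated region, had a fold enrichment of 191, and the EGLN3 peak had a log10 false discovery rate of -0.30, short of 0.05.

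EPAS1, SLC2A1 and VEGFA had a peak in all 4 lists, and PFKFB3 and SLC16A3 had one in 3. The peak of SLC2A1 lay in its 3′ untranslated region and overlapped in all lists, at chr1:42926540-42926809 in HSC3 control, chr1:42926480-42926660 in HSC3 with rapamycin, chr1:42926450-42926779 in CAL33 control and chr1:42926540-42926749 in CAL33 with rapamycin (hg38, minus strand). Its fold enrichment was 20.7 and 53.0 in HSC3 and 6.82 and 9.09 in CAL33, without and with rapamycin. The values in both lines were thus higher with rapamycin, and those in HSC3 higher than those in CAL33. They cover intervals of unlike width, 270 and 181 bases in HSC3 and 330 and 210 bases in CAL33, without and with rapamycin. The median over all peaks was 33.6 and 33.3 in HSC3 and 42.6 and 35.9 in CAL33. The part of width in the difference was not tested. The peak of VEGFA that all lists shared lay in an exon, at chr6:43785170-43785439 in HSC3 control and at chr6:43785020-43785589 in HSC3 with rapamycin (plus strand). Its fold enrichment was 51.9 and 51.8 in HSC3 and 59.3 and 30.2 in CAL33, without and with rapamycin, level in one line and lower in the other. VEGFA had further exon peaks with rapamycin that overlapped none in the control of the same line, 2 in HSC3 (21.9 and 3.48) and 1 in CAL33 (3.68).

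PFKFB3 had a peak in its 3′ untranslated region at chr10:6233302-6233482 in CAL33 control, with a fold enrichment of 2.95, and at chr10:6233272-6233782 in CAL33 with rapamycin, with 99.1 (plus strand). These CAL33 intervals cover 181 and 511 bases, without and with rapamycin, and the part of width in the difference was not tested. CAL33 control also had a coding peak of PFKFB3, with a fold enrichment of 21.3 and no overlapping peak with rapamycin. In HSC3 the peak in the 3′ untranslated region was present in the control only, at chr10:6233332-6233782 with a fold enrichment of 202. EPAS1 had an overlapping coding peak in HSC3 at chr2:46380249-46380399, with a fold enrichment of 11.2 without and 19.1 with rapamycin, whereas its CAL33 peaks with and without rapamycin did not overlap. SLC16A3 had coding peaks in both HSC3 lists that did not overlap each other. SLC2A3 had an exon peak with a fold enrichment of 336 in CAL33 control, although its RNA-seq counts were 0 to 2.

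Within HSC3, 3 of the 11 member peaks with rapamycin overlapped a control peak, where 28.4% of all rapamycin peaks did. Within CAL33, 3 of 9 did, where 29.9% of all rapamycin peaks did. The shared peaks were those of EPAS1, SLC2A1 and VEGFA in HSC3 and those of PFKFB3, SLC2A1 and VEGFA in CAL33. The other 8 and 6 member peaks with rapamycin, and the other 8 and 5 of the controls, had no overlapping partner, as was the case for most peaks of all genes.

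**Figure D5:**
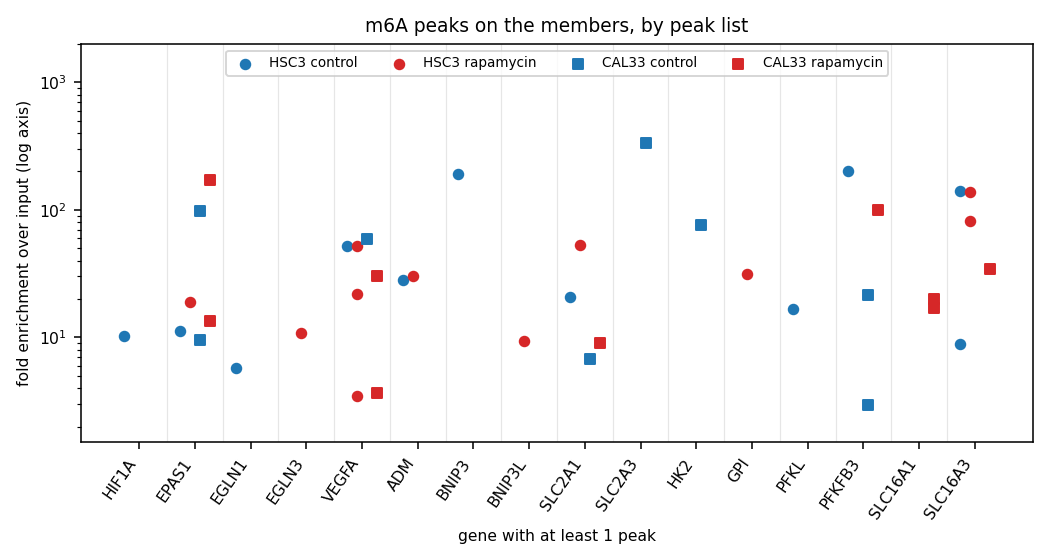
Fold enrichment over input on a log axis for the 39 peaks on the 16 members that had any, with 1 point per peak (blue, control; red, rapamycin; circle, HSC3; square, CAL33). SLC2A1, VEGFA and EPAS1 have points in all 4 lists. The SLC2A1 points with rapamycin lie above the control point of the same line, over intervals of unlike width.

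Other genes of these pathways were read from 5 lists of 115 genes, of which 100 were tested. In these, 8 genes rose, 3 fell and the median log2 fold change was -0.09, against the shares of 4.65% and 3.50% given above. Among 33 further hypoxia-response genes, 6 rose and 1 fell. With DESeq2 only DDIT4, MXI1 and STC2 of the 8 genes that rose over the 5 lists kept an adjusted p below 0.05, and those of ANGPTL4, CCNG2, HMOX1, LDHD and PDK2 were 0.098, 0.067, 0.092, 0.11 and 0.084, while the 3 that fell (PGAM5, TFRC and HSP90AA1) passed there too. DDIT4 (REDD1), a hypoxia-induced inhibitor of mTORC1, had 272 and 1465 CPM with rapamycin and 27.3 and 348 CPM without, a log2 fold change of 2.69 ± 0.31 (edgeR adjusted p = 6.7e-05). Its groups overlapped, and within each number the treated library was higher. MXI1, an antagonist of MYC, had 56.0 and 51.3 CPM against 22.8 and 11.8 CPM, a log2 fold change of 1.71. CCNG2, an atypical cyclin of resting cells, rose by 1.46. HMOX1, which breaks down haem, ANGPTL4, a regulator of lipid uptake, and the glycoprotein hormone STC2 rose by 1.32, 1.21 and 1.12. TFRC, the transferrin receptor, fell by 1.23 ± 0.26 (edgeR adjusted p = 0.0059).

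Among 13 further glycolysis genes, LDHD, a mitochondrial D-lactate dehydrogenase, rose by 1.95 from 0.18 and 4.56 CPM to 1.26 and 13.7 CPM, and PGAM5, a mitochondrial phosphatase named for its likeness to PGAM1, fell by 0.97. Among 14 regulators of the HIF pathway, the chaperone HSP90AA1, which stabilises HIF1A among many clients, fell from 2714 and 1894 CPM to 911 and 566 CPM (log2 fold change -1.66 ± 0.27, edgeR adjusted p = 0.00075). None of 10 genes of the pentose phosphate pathway passed in edgeR, and 2 of them had an unadjusted p below 0.05, against 23.6% of all tested genes. Of 30 genes of pyruvate entry and the citric acid cycle, PDK2, a kinase that restrains pyruvate dehydrogenase, rose by 1.01 ± 0.31 (edgeR adjusted p = 0.041), and the other 29 did not pass.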

How the data were processed

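RNA-seq was performed on 4 libraries and meRIP-seq (m6A immunoprecipitation and input) on 8 libraries. The authors deposited raw counts per gene under Ensembl identifiers, without normalisation. The submitters' processing notes name cutadapt 2.5, HISAT2 2.1.0, featureCounts 1.6.3, HOMER 4.10.4 and hg38, without roles, while the deposited count table is named after HTSeq. Whether strand was used in counting is not given in the sources used here. The m6A peak lists, 1 for each immunoprecipitated library and its input, hold the ratio of the pair as fold enrichment, with p-values and log10 false discovery rates, as deposited by the authors. The score column of these lists was not used.

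Differential expression was tested with edgeR 4.0.16 (R 4.3.3) after filterByExpr and TMM normalisation. The quasi-likelihood test with robust dispersion took treatment and library number as terms, with Benjamini-Hochberg adjustment at 0.05. Each SE was derived from this test, as the absolute log2 estimate divided by the square root of its F statistic. Over 15826 genes, which are no independent replicates, the differences between numbers under rapamycin and under control had a correlation of 0.90. The pairing comes from the titles and from the numbering of the meRIP-seq libraries. Differences within a number were taken on log2 CPM with an offset of 0.5 CPM. Peaks were called shared when they overlapped by at least 1 bp of exonic blocks on the same strand (Python 3.11.15). Counts were simulated for the treatment comparison with 200 genes changed 2-fold among 15483. Of the changed genes 28 were called, so that most 2-fold changes were missed there. A further 4 calls were false. The data had 1290 genes past the threshold, more than were changed in the simulation. As the adjustment depends on how many genes change, the share missed in the simulation need not hold for the data. Alternatives were DESeq2 1.42.0, other normalisations, filters and dispersions, no block, a 2-fold requirement, each library or number left out, and stricter peak and overlap rules.

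The members, the further lists and the tests were chosen with earlier results of these data known. Values in each library are given for the HIF subunits and prolyl hydroxylases, members past the threshold, the member with the largest change in each role, related pairs of genes and shared peaks. Other members given singly (GAPDH, PDK1, CA9 and the SLC2A3 peak among them) were chosen after their values were seen.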

Additional observations from a re-analysis of the deposited data

Results flagged for a closer look

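In 10 members and 1 ratio the numbered pairs went in opposite directions with rapamycin. Each pair is 1 library against 1 library, and the difference between the pairs was not tested. The log2 differences in the pairs numbered 1 and 2 were 0.25 and -0.20 for HIF1A, -0.27 and 0.55 for ADM, -1.44 and 0.0028 for CA9, and -0.70 and 0.17 for ANKRD37, which had at most 1.94 CPM in a library. They were -0.0743 and 0.16 for NDRG1, -0.78 and 0.34 for P4HA1, -0.14 and 0.995 for P4HA2, and 0.0012 and -0.41 for SLC2A1. They were -0.76 and 0.14 for HK1, -0.17 and 0.11 for ALDOC, and 0.72 and -0.94 for the HK2/HK1 ratio. Several of these values lie close to 0. Among these 11 items the widest gaps between the pairs were those of the HK2/HK1 ratio, CA9, P4HA2 and P4HA1. Across all tested genes 5321 of 15826 had pairs of opposite direction. This count includes genes with a difference of 0 within a number, such as KRT14.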

How the results depend on the processing

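The result that depended most on the processing was the replicate block. Without the block, 0 members were called higher and 0 lower, 0 of all genes in either direction and 0 of the further pathway genes, with an edgeR adjusted p of 0.9997 for each of the 11 members, and ALDOC changed sign to 0.10. With any 1 library left out, a fit that had to omit the block also called 0 members and 0 genes in either direction, with the lone library of a group assumed to vary like the others. Without number 1 or number 2, which leaves 1 pair and no test, the median of the members was between -0.41 and -0.27. With DESeq2, which gave no adjusted p for 3682 genes, 1 member was higher (BNIP3L had an adjusted p of 0.056) and 10 lower (ENO1 was added, adjusted p = 0.042), with 416 genes higher over all and 3 of the further pathway genes higher. With upper-quartile normalisation GPI, TPI1 and PGK1 did not pass (edgeR adjusted p = 0.056, 0.064 and 0.059), leaving 6 members lower, ALDOC was 0.0502, and 360 genes were lower over all against 805 higher, a shift of 0.07 in the median of all genes. With non-robust dispersion TPI1 did not pass (edgeR adjusted p = 0.051). A 2-fold requirement left 1 member higher and 6 lower, and 8 higher and 1 lower between the numbers. With at least 10 counts in every sample ALDOC was 0.0022 and 1974 genes were lower in number 2, and with no filter HIF1A was -0.0106. LDHA, PGAM1, PKM, EGLN1, EGLN3, BNIP3 and VEGFA passed under every alternative that kept the block. The counts of member peaks stayed within 1 under stricter peak and overlap rules. The replicate block changed the 11 calls and no call of the members that did not pass. SLC2A3 did not pass the filter on low counts, ANKRD37 had an SE of 0.66, and the depth of the m6A libraries is unknown.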
